A study of Homo sapiens with 6 samples.

Results

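AP-1 is the name for a group of transcription factors assembled from basic leucine zipper (bZIP) proteins of the FOS, JUN, ATF and MAF families. The 9 genes described here were chosen by symbol: FOS, FOSB, FOSL1, FOSL2, JUN, JUNB, JUND, ATF3 and MAFF, 9 of the 46427 genes and 31 of the 170322 transcripts in the deposited tables. The RNA came from MDA-MB-231/RR, a radioresistant derivative of MDA-MB-231, a human triple-negative breast cancer line. The study asked whether ortho-topolin riboside (oTR), a plant cytokinin carrying a ribose, and the pineal hormone melatonin act together on these cells. The tested libraries were 3 samples of MDA-MB-231/RR given oTR and melatonin together, and they were set against 3 control samples of the same cells, for which the labels name no treatment. The sources used here state no dose, exposure time or vehicle, and no library treated with oTR alone or melatonin alone was analysed here. Both groups are the same radioresistant line, so the comparison says nothing of the parental line, and all cells were taken up with trypsin-EDTA before freezing.

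FOS proteins generally need a JUN partner to bind DNA, whereas JUN proteins can pair among themselves. The dimers bind DNA at AP-1 sites such as TGACTCA and at the related cyclic AMP response element TGACGTCA. FOS, FOSB, JUN, JUNB and ATF3 are immediate early genes: growth factors, stress and kinase signalling induce them within minutes, and their mRNAs are short-lived. FOSL1 and FOSL2, which encode Fra-1 and Fra-2, follow later and are kept up by sustained ERK signalling. FOSL1 is known for its high level in mesenchymal, triple-negative breast cancer lines. MAFF is a small MAF protein without a transactivation domain of its own.

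The estimated counts summed to between 50569611 and 72204161 in the co-treated libraries and between 56521572 and 72309015 in the controls. Whether the samples of a group were separate cultures is not stated, so the p-values below cover the spread among these 6 samples, and that spread may be technical. All 6 markers listed as present in MDA-MB-231 were found, among them VIM at 2380 to 2694 TPM in co-treated and 2037 to 2223 TPM in control libraries. Of these 6, EGFR was called higher (log2 fold change 0.26, edgeR adjusted p = 0.00117) and CAV1 and KRT18 lower (-0.22 and -0.20, edgeR adjusted p = 0.00518 and 0.0106), and their part in the results was not tested. Of the 6 listed as absent or low, ESR1, PGR and CDH1 were at or near 0 in every library, at most 0.0243 TPM. EPCAM lay at 0.113 to 0.261 TPM in co-treated and 0.299 to 0.555 TPM in control libraries, GATA3 at 3.01 to 3.43 TPM in co-treated and 3.98 to 4.65 TPM in control libraries, and ERBB2 at 33.3 to 37.4 TPM in co-treated and 28.3 to 29.9 TPM in control libraries. Of this list 3 were tested: 2 were called lower, GATA3 among them (log2 fold change -0.49, edgeR adjusted p = 0.00372), and 0 higher. ERBB2 was thus not called higher. The summed level of 10 markers of immune, endothelial and fibroblast cells was 9.65 to 9.87 TPM in co-treated and 9.43 to 12.1 TPM in control libraries, with PTPRC and DCN at 0. COL1A1, most of that sum, was called lower, at 17.4 ± 1.05 CPM in co-treated and 21.7 ± 1.92 CPM in control cells (SD, n = 3 each; log2 fold change -0.32, edgeR adjusted p = 0.0091), and PECAM1 lay at 0.173 to 0.27 TPM in co-treated and 0.0618 to 0.146 TPM in control libraries without being called (edgeR adjusted p = 0.0928). Nuclear ribosomal RNA took 0.551%, 1.07% and 0.479% of the counts in co-treated replicates 1, 2 and 3, against 0.347%, 0.37% and 0.294% in controls 1, 2 and 3. Its part in the results was not tested. In bulk RNA, fewer cells that express a gene and less RNA per cell cannot be told apart.

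In co-treated cells FOS, JUNB and JUND mRNA rose and FOSL1 and JUN mRNA fell, while FOSB, FOSL2, ATF3 and MAFF did not pass the test. FOS had the largest fold change, 2.09-fold, at a low level. FOSL1, the most abundant of the 9, fell to 0.747 of the control level and JUN to 0.804. All 9 genes passed the filter on low counts. Of the 9, 3 were called higher, where 16.6% of all 16557 tested genes were, and 2 lower, where 17.1% were (edgeR quasi-likelihood test, Benjamini-Hochberg adjusted p of 0.05 over all genes). The balance over all genes, 2743 higher and 2835 lower, tilts to 3816 and 2065 when libraries are scaled by size alone and to 4443 and 1276 with limma on log2(TPM + 1), without a change in the count of AP-1 calls. The 5 called members compare with 33.7% of all tested genes called in either direction, and the 6 members whose groups did not overlap with 47.4% of them. The median log2 fold change over the 9 was -0.009, beside 0.002 over all tested genes.

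**Figure D1:**
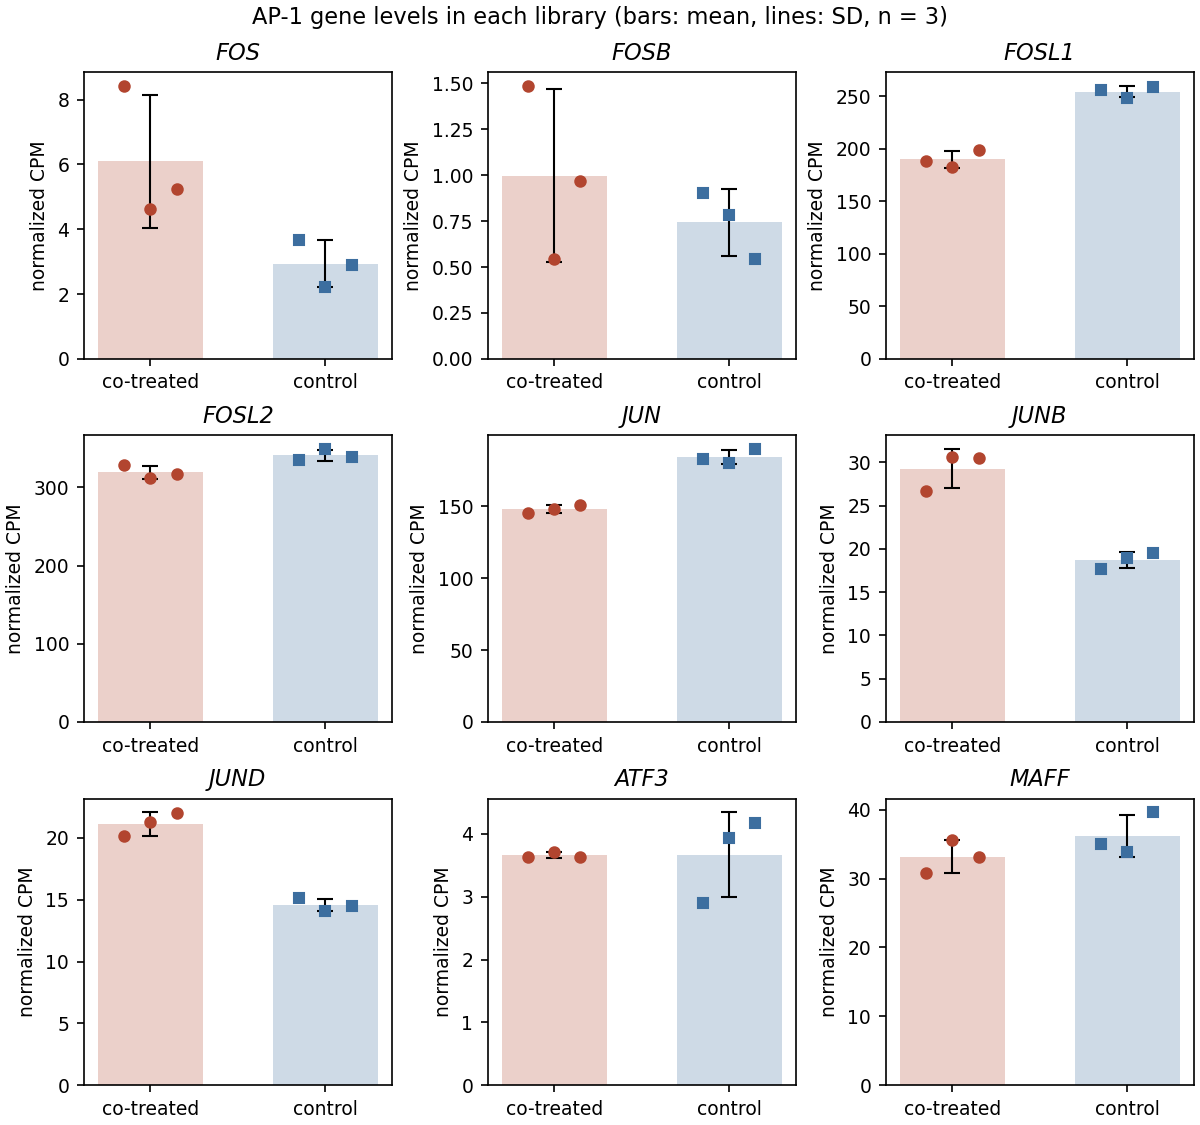
Normalized CPM of the 9 AP-1 genes in each library, co-treated libraries as circles and control libraries as squares; bars are means and lines SD (n = 3), and each panel has its own axis from 0. FOS, JUNB and JUND points lie higher in the co-treated libraries and FOSL1 and JUN points lower, without overlap, while FOSL2 points lie close together without overlap and FOSB, ATF3 and MAFF points overlap.

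FOS (gene ID 2353, chromosome 14, 75278828 to 75282230 on GRCh38, plus strand) encodes c-Fos, the founding member and the textbook immediate early gene. It had 8.42, 4.63 and 5.23 CPM, the estimated counts scaled by library total and normalized between libraries, in co-treated replicates 1, 2 and 3, against 3.67, 2.23 and 2.89 CPM in controls 1, 2 and 3. Those values rest on 459, 239 and 384 estimated counts in co-treated and 204, 159 and 202 in control libraries. The groups did not overlap, but co-treated replicate 1 stood well above the other two. The mean was 6.09 ± 2.04 CPM in co-treated and 2.93 ± 0.723 CPM in control cells (SD, n = 3 each), a log2 fold change of 1.06 ± 0.23 (SE; 95% interval 0.56 to 1.56; edgeR adjusted p = 0.00462). Without co-treated replicate 1 it was 0.76 (edgeR adjusted p = 0.0105). The call was lost on the scale log2(TPM + 1) with no filter on low genes (0.95, limma adjusted p = 0.0578).

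FOSB (gene ID 2354, chromosome 19, 45467996 to 45475179, plus strand) encodes a FOS protein best known from neurons. It was the lowest of the 9, with 1.49, 0.542 and 0.967 CPM in co-treated and 0.901, 0.786 and 0.544 CPM in control libraries. Its estimated counts were 81, 28 and 71 in co-treated and 50, 56 and 38 in control libraries. The groups overlapped, and the log2 fold change of 0.44 ± 0.33 (SE) did not pass (edgeR adjusted p = 0.349). Its 95% interval, -0.30 to 1.17, is wide enough to include the estimate for FOS. As with FOS, co-treated replicate 1 was the highest library, and without it the log2 fold change was 0.05. Without co-treated replicate 2 it was 0.72 (edgeR adjusted p = 0.0935), and without control replicate 3 it was 0.25.

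FOSL1 (gene ID 8061, chromosome 11, 65892049 to 65900526, minus strand) had 188, 183 and 199 CPM in co-treated and 256, 248 and 259 CPM in control libraries. Every co-treated library lay below every control, with a gap wider than the spread inside either group. The means were 190 ± 8.08 CPM in co-treated and 254 ± 5.41 CPM in control cells (SD, n = 3 each), a log2 fold change of -0.42 ± 0.05 (SE; 95% interval -0.52 to -0.32; edgeR adjusted p = 0.000102). FOSL1 was called lower under all 20 alternative settings tried, at log2 fold changes between -0.45 and -0.29.

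FOSL2 (gene ID 2355, chromosome 2, 28392855 to 28417317, plus strand) had 328, 312 and 317 CPM in co-treated and 335, 349 and 339 CPM in control libraries. The groups did not overlap but lay close together, and the log2 fold change of -0.10 ± 0.04 (SE; 95% interval -0.19 to -0.0020) did not pass (edgeR adjusted p = 0.107). It passed with DESeq2 (-0.10, adjusted p = 0.0440), with a transcript length trend removed (-0.20, edgeR adjusted p = 0.00288) and with length and GC trends removed (-0.15, edgeR adjusted p = 0.00367), while with limma on log2(TPM + 1) it lay at 0.03, above 0. FOSL2 has the longest mRNA of the 9, with a mean transcript length of 6659 bases, and the median log2 fold change of all tested genes was -0.13 for those under 1500 bases and 0.09 for those of 4000 bases or more. In the fits that remove length or GC trends, each of the 5 called members kept its call. An antisense gene, FLJ31356, overlaps the start of FOSL2 and had 0 to 8 counts per library.

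JUN (gene ID 3725, chromosome 1, 58780791 to 58784047, minus strand) encodes c-Jun, the strongest activator among the JUN proteins and the substrate that named the JNK kinases. It had 145, 148 and 151 CPM in co-treated and 183, 180 and 190 CPM in control libraries. The groups stood apart and each was tight. The means were 148 ± 3.03 CPM in co-treated and 184 ± 4.91 CPM in control cells (SD, n = 3 each), a log2 fold change of -0.32 ± 0.04 (SE; 95% interval -0.41 to -0.22; edgeR adjusted p = 0.000343). JUN was called lower under all 20 alternative settings, at -0.33 to -0.18, the smallest fall being that with limma on log2(TPM + 1).

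JUNB (gene ID 3726, chromosome 19, 12791486 to 12793315, plus strand) encodes a JUN protein that is a weaker activator than c-Jun on many promoters and can oppose it. It had 26.7, 30.7 and 30.5 CPM in co-treated and 17.7, 18.9 and 19.6 CPM in control libraries. The lowest co-treated library lay clear of the highest control. The means were 29.3 ± 2.26 CPM in co-treated and 18.7 ± 0.952 CPM in control cells (SD, n = 3 each), a 1.56-fold rise and a log2 fold change of 0.64 ± 0.07 (SE; 95% interval 0.49 to 0.80; edgeR adjusted p = 0.000107).

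JUND (gene ID 3727, chromosome 19, 18279694 to 18281622, minus strand) encodes the JUN protein that is present in most resting cells and responds least to growth factors. It had 20.1, 21.3 and 22.01 CPM in co-treated and 15.1, 14.1 and 14.5 CPM in control libraries, again without overlap. The means were 21.1 ± 0.943 CPM in co-treated and 14.6 ± 0.516 CPM in control cells (SD, n = 3 each), a 1.45-fold rise and a log2 fold change of 0.54 ± 0.06 (SE; 95% interval 0.40 to 0.68; edgeR adjusted p = 0.000159). JUND has the highest GC content of the 9 genes, 69.7%, with JUNB at 64.9%. With a GC trend, a length trend or both removed, JUNB and JUND were still called higher.

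ATF3 (gene ID 467, chromosome 1, 212565334 to 212620777, plus strand) encodes a stress-induced factor that pairs with JUN proteins and often represses. It had 3.63, 3.72 and 3.64 CPM in co-treated and 2.90, 3.94 and 4.17 CPM in control libraries. The co-treated libraries fell inside the range of the controls, and the log2 fold change was -0.01 ± 0.14 (SE; 95% interval -0.31 to 0.29; edgeR adjusted p = 0.969). MAFF (gene ID 23764, chromosome 22, 38201932 to 38216511, plus strand) had 30.8, 35.6 and 33.2 CPM in co-treated and 35.02, 33.8 and 39.6 CPM in control libraries. These also overlapped, with a log2 fold change of -0.12 ± 0.07 (SE; 95% interval -0.29 to 0.04; edgeR adjusted p = 0.225). The interval of ATF3 does not include the estimates for FOS, JUNB or JUND, and that of MAFF does not include those for FOSL1 or JUN. Those estimates have intervals of their own, and that of JUN, -0.41 to -0.22, overlaps that of MAFF. Differences between genes were not tested.

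**Figure D2:**
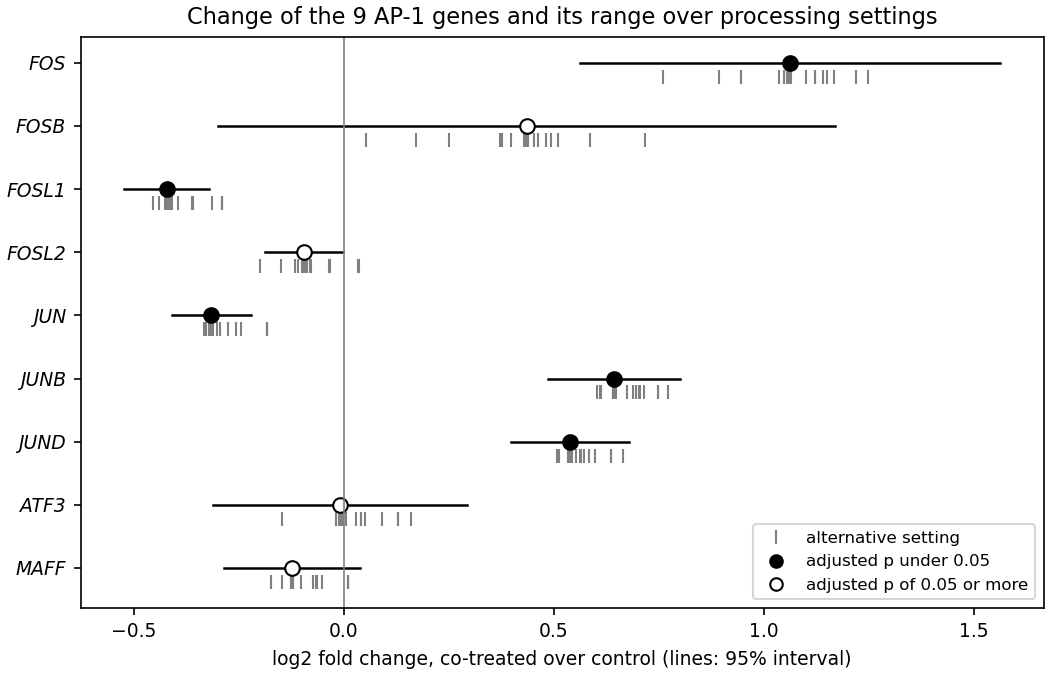
Log2 fold change of each AP-1 gene, co-treated over control, with its 95% interval as a line and the values under the alternative settings as ticks. Filled circles mark an adjusted p under 0.05: FOS at 1.06, JUNB at 0.64, JUND at 0.54, JUN at -0.32 and FOSL1 at -0.42 keep their side of 0 at every tick, while the ticks of FOSL2, ATF3 and MAFF fall on both sides.

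The core promoters of JUN, FOS and JUNB are shown because these 3 immediate early genes did not move the same way. The letters are the 150 bases before the RefSeq gene start (GRCh38.p14): chr1:58784048-58784197 on the minus strand for JUN, chr14:75278678-75278827 on the plus strand for FOS and chr19:12791336-12791485 on the plus strand for JUNB. Capitals mark TGACATCA, the variant AP-1 site of the JUN promoter, TGACG, a half-site of the cyclic AMP response element, and TATAAA, the core element bound by TBP.
JUN: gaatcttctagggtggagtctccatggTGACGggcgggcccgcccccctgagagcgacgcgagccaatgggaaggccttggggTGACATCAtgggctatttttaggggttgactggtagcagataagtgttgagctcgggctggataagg
FOS: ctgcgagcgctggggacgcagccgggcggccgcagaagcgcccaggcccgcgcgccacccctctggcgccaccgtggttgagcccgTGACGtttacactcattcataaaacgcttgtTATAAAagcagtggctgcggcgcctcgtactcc
JUNB: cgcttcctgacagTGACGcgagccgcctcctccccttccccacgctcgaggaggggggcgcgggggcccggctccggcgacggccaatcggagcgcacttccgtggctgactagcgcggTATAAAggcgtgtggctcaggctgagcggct

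In JUN the TGACATCA lies at positions -67 to -60 from the gene start, and JUN has no TATAAA in the window. FOS has TGACG at -64 and TATAAA at -33, and JUNB has them at -137 and -31. RefSeq promoters matched 8 of the 9 genes, and 250 bases before each start were searched on both strands, TATAAA on the gene's own strand. FOSB, which did not pass the test, has the same pair as FOS, TGACG at -60 and TATAAA at -30. JUND has the whole element TGACGTCA at -200 and MAFF at -54, which each hold TGACG as well, JUND has a further TGACG at -86, FOSL2 has TGACG at -201 and -66, and of 2 entries for ATF3 the first has TGACATCA at -123 and the other TATAAA at -230. TGACTCA was not found in the window of any of the 8. Among 35116 promoters of the same length, 2.37% held TGACATCA, 21.2% TGACG, 1.65% TGACGTCA, 4.2% TGACTCA and 6.8% TATAAA. The half-site TGACG was found before JUN, which fell, and before FOS, JUNB and JUND, which rose. It was also found before FOSB, FOSL2 and MAFF, which were not called. Its part in these changes was not tested. ATF3's entries do not start where its main transcript in these cells starts.

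AU-rich elements in the 3′ untranslated region mark short-lived mRNAs, and all 9 genes carry the pentamer ATTTA there. FOS has 5, FOSB 3, FOSL1 1, FOSL2 9, JUN 3, JUNB 2, JUND 1, ATF3 3 and MAFF 4, in regions of 500 bases (JUNB) to 4864 bases (FOSL2) of GENCODE's principal transcripts. The longer TATTTAT was found in 8 of the 9, JUNB being the exception. Of 12591 tested genes with such a region, 69.3% held ATTTA and 32.8% TATTTAT. Windows of 30 bases around a TATTTAT (capitals) are shown for FOS, which rose, and for JUN and FOSL1, which fell: chr14:75282060-75282089 on the plus strand, chr1:58780818-58780847 and chr11:65892271-65892300 on the minus strand (GRCh38).
FOS: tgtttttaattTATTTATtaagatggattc
JUN: ttgcttatgaaTATTTATaacagcattctt
FOSL1: agggcagctgcTATTTATtttcctaaagag

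Levels can be compared between genes only per length, for which the authors' TPM was used. In co-treated cells FOSL1 was first at 264 ± 8.67 TPM (SD, n = 3), rank 524 of the tested genes, followed by FOSL2 at 111 ± 4.38, JUN at 106 ± 0.293, JUNB at 37.1 ± 2.32, MAFF at 32.4 ± 2.17, JUND at 25.4 ± 0.678, FOS at 6.74 ± 2.38, ATF3 at 4.11 ± 0.163 and FOSB at 0.609 ± 0.30 TPM. In control cells FOSL1 was first at 323 ± 4.44 TPM, rank 424, followed by JUN at 120 ± 1.14, FOSL2 at 108 ± 3.79, MAFF at 32.2 ± 2.06, JUNB at 21.7 ± 0.824, JUND at 16.0 ± 0.700, ATF3 at 3.70 ± 0.561, FOS at 2.95 ± 0.735 and FOSB at 0.414 ± 0.101 TPM. Neighbours in these orders did not overlap, except JUNB and MAFF in co-treated and ATF3 and FOS in control cells. The order of 3 neighbouring pairs differed between the groups: FOSL2 stood above JUN, JUNB above MAFF and FOS above ATF3 in co-treated cells only, of which the first did not overlap in either group. The TPM behind these orders were not adjusted for the length trend described for FOSL2.

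Within each family the make-up of the mRNA pool shifted. Shares within a library do not depend on how libraries are scaled, and they are given as a description without a test. They carry no adjustment for the length trend described for FOSL2. With that trend removed, the log2 fold change was -0.36 instead of -0.42 for FOSL1 and -0.20 instead of -0.10 for FOSL2. FOSL1 made up 67.8% to 70.2% of the TPM of the 4 FOS genes in co-treated and 73.4% to 74.8% in control libraries. FOSL2 made up a mean of 29.1% in co-treated and 24.98% in control cells, FOS 1.75% in co-treated and 0.678% in control cells, and FOSB 0.158% in co-treated and 0.0952% in control cells. FOS was a small part of the pool in both groups.

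Among the 3 JUN genes, JUN made up 62.1% to 64.1% of the TPM in co-treated and 75.8% to 76.3% in control libraries. JUNB made up 20.9% to 22.8% in co-treated and 13.1% to 14.2% in control libraries, and JUND a mean of 15.1% in co-treated and 10.15% in control cells. The ratio of JUN to JUNB was 3.06, 2.72 and 2.79 in co-treated and 5.82, 5.35 and 5.45 in control libraries. The ratio of FOSL1 to FOS was 28.1, 50.02 and 47.7 in co-treated and 87.8, 141 and 113 in control libraries. Neither ratio overlapped between the groups, which follows from the opposite, non-overlapping shifts of the genes that form it.

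The sum over the FOS genes was 382 ± 12.9 TPM in co-treated and 434 ± 4.76 TPM in control cells, and over the JUN genes 168 ± 3.10 TPM in co-treated and 158 ± 1.00 TPM in control cells (SD, n = 3 each). Over all genes with at least 1 TPM, the median log2(TPM + 1) difference was 0.11, higher in co-treated cells, a shift of about the size of the higher JUN sum. Over all 9 genes the sum was 587 ± 8.85 TPM in co-treated and 628 ± 3.65 TPM in control cells.

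**Figure D3:**
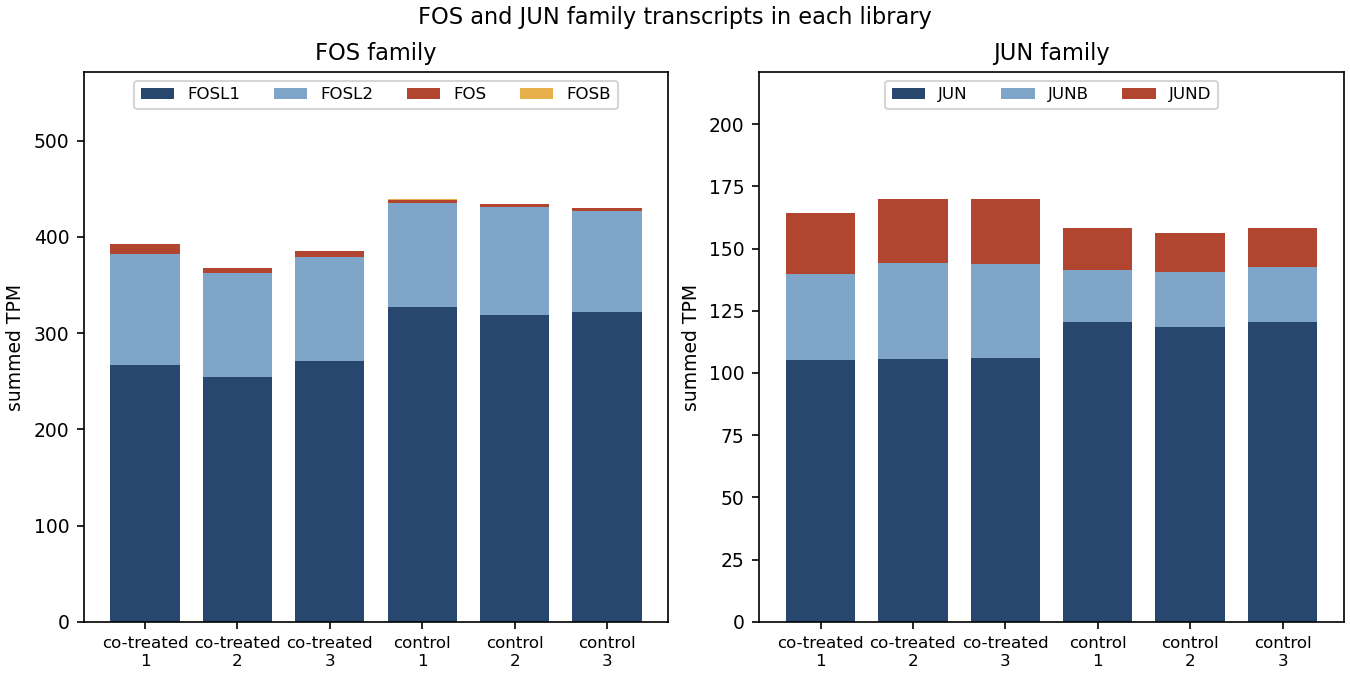
Stacked TPM of the 4 FOS genes (left) and the 3 JUN genes (right) in each library, the 3 co-treated libraries first. The FOSL1 segment is shorter in every co-treated library, and JUNB and JUND take more of the JUN stack, while FOSB is too low to see.

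The transcript table holds 31 transcripts of the 9 genes, of which 22 passed the filter and 4 had 0 counts in every library. FOS, JUN and JUNB have 1 transcript each, and NM_005354 was assigned 99.9% or more of JUND. The other JUND entry, NM_001286968, has the same start, end and length, so reads may not tell these entries apart. Tested 1 by 1 over 65252 transcripts, none of the 22 was called (edgeR adjusted p), and 6 had an unadjusted p under 0.05: the transcripts of FOS, JUN, JUNB and JUND and the FOSL1 transcripts NM_005438 and NM_001300844. With limma-voom 0 were called and 6 had an unadjusted p under 0.05. Over all transcripts 0.00153% were called. On simulated transcript counts with the spread of these data, 0 of 50 transcripts changed 4-fold were recovered among 60089, so this count of 0 carries no information on stability. At a dispersion of 0.05, 47 of 50 were recovered among 64110.

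FOSL1 had the most tested transcripts, 6. NM_005438 held 52.2% ± 1.18 of its TPM in co-treated and 55.1% ± 1.68 in control cells, NM_001300855 27.3% ± 1.38 in co-treated and 23.9% ± 1.47 in control cells, and NM_001300844 14.9% ± 1.55 in co-treated and 15.5% ± 1.63 in control cells (SD, n = 3 each). Their shares lay in the same order in all 6 libraries. NM_005438 held 50.8% to 53.1% in co-treated and 53.2% to 56.5% in control libraries, ranges that nearly touch. NM_001300855 held 26.4% to 28.9% in co-treated and 22.6% to 25.5% in control libraries. How often shares stand apart in this way over all transcripts was not counted. Shares within a gene also depend on each other, since a higher one lowers the rest. The FOSL2 transcript NM_005253 held 69.3% ± 6.33 in co-treated and 71.7% ± 7.30 in control cells, with most of the rest in the predicted transcript XM_006711976. The ATF3 transcript NM_001674 held 84.2% ± 10.7 in co-treated and 71.5% ± 16.6 in control cells, with overlapping ranges. The MAFF transcript NM_012323 held 92.9% ± 1.61 in co-treated and 94.4% ± 1.97 in control cells. FOSB counts stood on NM_006732 in all co-treated libraries, whereas control 3 had 35 of its 38 counts on the predicted transcript XM_005258691. FOSB variant 2 (NM_001114171) had 0.000366 TPM in control 1, which rounding up turned into 1 count, and none elsewhere.

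Whether the shares within a gene changed could be tested for FOSL1, FOSL2, ATF3 and MAFF. None was called for the gene as a whole (limma diffSplice adjusted p = 0.562, 0.941, 0.663 and 0.876), none had an unadjusted p under 0.05 for the gene, and edgeR's diffSpliceDGE called 0 as well, where 1.9% of 9961 genes were called with diffSplice. Of all member transcripts in this test, NM_001300855 of FOSL1 had the smallest unadjusted limma p, 0.0131, at 0.28 on the log2 scale relative to the gene. That p does not allow for the number of transcripts looked at. In a simulation of 9578 genes diffSplice recovered 37 of 100 swapped genes, so changes in usage could be missed.

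**Figure D4:**
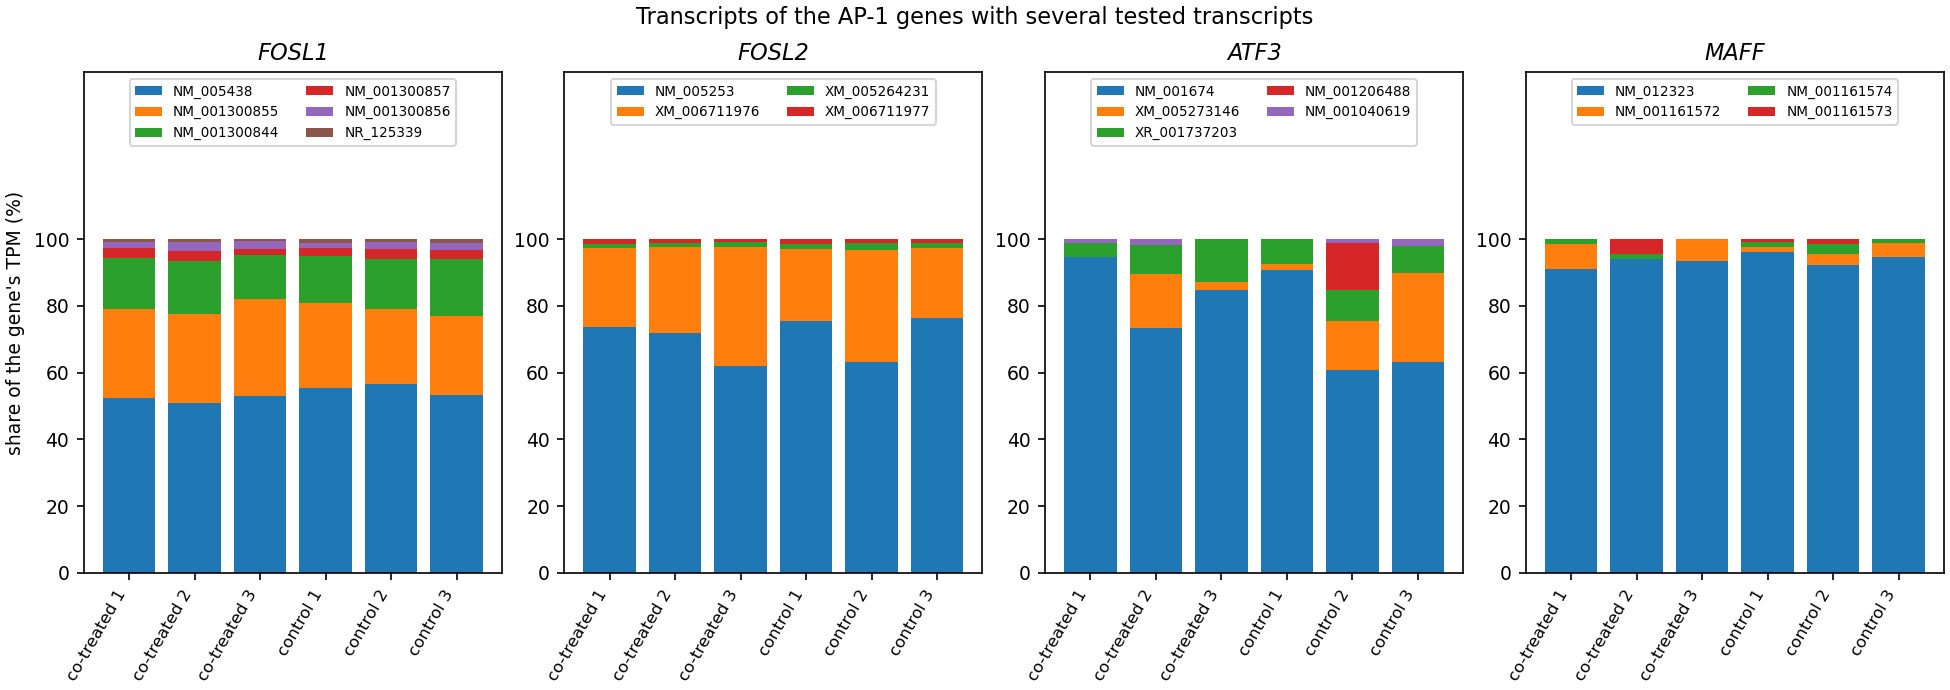
Share of each gene's TPM held by its transcripts, in percent, in each library, for the 4 AP-1 genes with several tested transcripts. In FOSL1 the share of NM_001300855 is 26.4% to 28.9% in co-treated and 22.6% to 25.5% in control libraries. The ATF3 and FOSL2 stacks vary between libraries of the same group.

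Other bZIP proteins share dimer partners with these genes. Of 19 listed, 16 were tested, 5 rose and 6 fell, with a median log2 fold change of -0.16. For comparison, 16.6% of all tested genes were called higher and 17.1% lower. BACH1, a heme-regulated repressor that pairs with small MAF proteins, averaged 46.4 ± 2.72 CPM in co-treated and 35.9 ± 0.938 CPM in control cells (SD, n = 3; log2 fold change 0.37 ± 0.06, SE; edgeR adjusted p = 0.000638). The JUN partners ATF2 and ATF7 rose by 0.27 and 0.23 on the log2 scale. MAFG, a small MAF protein like MAFF, fell to 67.5 ± 3.36 CPM in co-treated cells, against 88.2 ± 0.643 CPM in controls (-0.39 ± 0.05, SE; edgeR adjusted p = 0.000206). CREB5 and BATF3 fell by 0.40 and 0.38 on the log2 scale. On log2(TPM + 1) with the filter 3 of the list rose and 2 fell.

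AP-1 genes are switched on through MAP kinases and the factors they phosphorylate on AP-1 promoters. Of 30 such genes, 29 were tested, 7 rose and 4 fell, with a median of 0.09, and 18 did not pass. Among all tested genes 16.6% were called higher and 17.1% lower. RPS6KA2, a ribosomal S6 kinase below ERK, had 11.4 ± 0.461 CPM in co-treated and 8.21 ± 0.474 CPM in control cells. The transcription factor genes MEF2C and CREB1 rose by 0.31 and 0.25 on the log2 scale. The kinase genes RPS6KA4, MAPK3 (ERK1) and MAPK13 (p38 delta) fell by 0.42, 0.25 and 0.22 on the log2 scale. With the length trend removed 4 rose, and on log2(TPM + 1) with the filter 16 rose and 1 fell. These are mRNA levels, and kinase activity was not measured.

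Of 8 genes that govern the breakdown or stability of FOS and JUN proteins, 3 rose and 1 fell, with a median of 0.04. Called shares over all tested genes, for this list and the next, were 16.6% higher and 17.1% lower. TRIB1, a scaffold of the COP1 ubiquitin ligase, had 33.3 ± 3.93 CPM in co-treated and 18.9 ± 0.690 CPM in control cells (log2 fold change 0.81 ± 0.08, SE; edgeR adjusted p = 6.16e-05). ITCH, a JUN and JUNB ubiquitin ligase, rose by 0.21 on the log2 scale and TRIB2 by 0.17. With the length trend removed 1 of the list rose and 0 fell. Of 6 genes whose products bind AU-rich elements, 1 rose and 2 fell, with a median of -0.06. ZFP36, which promotes decay of such mRNAs and is itself an immediate early gene, rose to 12.7 ± 0.463 CPM in co-treated cells, against 10.1 ± 0.571 CPM in controls (0.34 ± 0.07, SE; edgeR adjusted p = 0.00467). HNRNPD and KHSRP, which also bind such elements, fell by 0.31 and 0.24 on the log2 scale.

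Of 26 other immediate early genes, induced by the same signals as FOS and JUNB, 24 were tested, 10 rose and 2 fell, with a median of 0.19. Beside this, 16.6% of all tested genes were called higher and 17.1% lower. NR4A2, an orphan nuclear receptor, had 3.50 ± 0.294 CPM in co-treated and 1.52 ± 0.126 CPM in control cells (log2 fold change 1.198 ± 0.13, SE; edgeR adjusted p = 0.000113). DUSP1, a phosphatase that switches MAP kinases off, had 75.7 ± 5.12 CPM in co-treated and 48.9 ± 3.66 CPM in control cells (0.63 ± 0.07, SE; edgeR adjusted p = 7.93e-05), and NR4A1 rose by 0.49. MYC fell to 125 ± 4.76 CPM in co-treated cells, against 180 ± 6.60 CPM in controls, and CCN1, a matricellular protein gene, fell by 0.38 on the log2 scale. The list was drawn up with results of these libraries known, so its direction is not independent evidence.

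Heat shock genes that respond to stress and cell dissociation moved both ways: of 9, 3 rose and 3 fell, with a median of 0.07. All tested genes had 16.6% called higher and 17.1% lower. HSPA1B and HSPA1A, near-identical copies between which reads cannot be assigned with certainty, rose by 0.61 and 0.55 on the log2 scale, and DNAJB1 by 0.20. HSPB1 had 95.3 ± 6.10 CPM in co-treated and 144 ± 5.72 CPM in control cells (SD, n = 3 each), and HSP90AA1 and DNAJA1 fell by 0.20 and 0.17 on the log2 scale. On log2(TPM + 1) with the filter 6 rose and 1 fell. The part of cell handling in the rise of FOS and JUNB was not tested.

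Genes that textbooks list as AP-1 targets also moved both ways. Of 33 listed, 29 were tested, 5 rose, 10 fell and 14 did not pass, with a median of -0.09. By comparison, 16.6% of all tested genes were called higher and 17.1% lower. VEGFA, the vascular growth factor, had 27.5 ± 0.843 CPM in co-treated and 48.2 ± 2.51 CPM in control cells (log2 fold change -0.81 ± 0.06, SE; edgeR adjusted p = 7.64e-06). The gap junction gene GJA1 and the cytokine gene LIF fell by 0.57 and 0.47 on the log2 scale. MT2A, a metallothionein, had 658 ± 42.3 CPM in co-treated and 483 ± 9.63 CPM in control cells (0.44 ± 0.05, SE; edgeR adjusted p = 0.000129), TGFB1 rose by 0.43 and the EGF-family ligand gene EREG by 0.22. The count of 5 that rose was 3 without co-treated replicate 2, 2 without co-treated replicate 3 and 2 without control replicate 1. Scaling by library size alone gave 8 that rose, removal of the GC trend 9 and removal of length and GC trends 8. On log2(TPM + 1), 10 rose with the filter, and 6 fell without it. These genes answer to many factors besides AP-1.

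**Figure D5:**
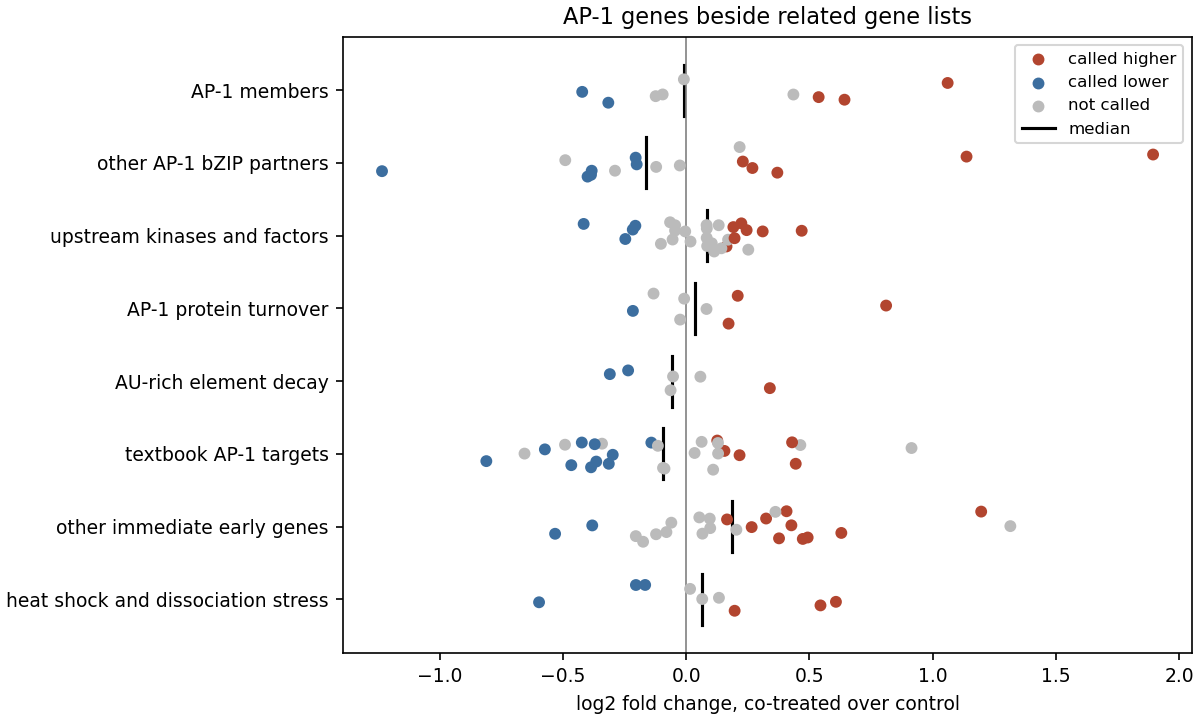
Log2 fold change, co-treated over control, of the tested genes of each list, with called genes coloured by direction and a bar at each list's median. The AP-1 genes spread from -0.42 to 1.06 around a median of -0.009, and each of the 7 related lists plotted below them also holds called genes on both sides of 0.

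The genes whose values ran most like a member's over the 6 libraries were sought among 10698 genes averaging at least 5 CPM. The AP-1 members were left out, as were symbols with prefixes such as LOC, LINC, MIR and SNOR, so many noncoding genes were not candidates. Likeness was the root mean square difference of log2 CPM centred on the control mean, a measure that favours genes with a similar fold change. For FOS the closest genes were MALAT1 (0.229), RAB27B (0.266) and NEAT1 (0.269), a small GTPase gene between a pair of long nuclear noncoding RNAs. MALAT1 had 168 ± 20.8 CPM in co-treated and 87.5 ± 6.51 CPM in control cells, and NEAT1 424 ± 35.6 CPM in co-treated and 199.94 ± 10.8 CPM in control cells (SD, n = 3 each). For FOSL1 they were NPM1 (0.0181), UTP4 (0.0213) and LETM1 (0.0235), of which NPM1 and UTP4 act in ribosome assembly and LETM1 in mitochondrial ion exchange. NPM1 had 2230 ± 83.5 CPM in co-treated and 3000.4 ± 48.5 CPM in control cells. The likeness to FOS is looser than that to FOSL1, whose replicates were tighter.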

How the data were processed

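Gene expression in 3 co-treated and 3 control MDA-MB-231/RR samples was measured by RNA sequencing, with groups as the sample titles give them. Trimmomatic 0.38, HISAT2 2.1.0, SAMtools 1.9, StringTie 2.1.3b and GRCh38 are named per the submitters' processing notes. Columns headed Con were taken as control and those headed Mo as melatonin plus oTR, which the labels do not spell out. Whether libraries were stranded is not stated in the labels. The authors deposited estimated counts, FPKM and TPM per gene and transcript. The deposited estimated counts, whole numbers, equalled FPKM times length rounded up for 326895 of 326895 low values (tolerance 0.06 counts), and all 46427 genes equalled their transcript sums. The deposited TPM, per the file headers, gave levels and shares, and the deposited FPKM served only that check of units.

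Genes passing filterByExpr (minimum count 10) entered edgeR 4.0.16 (two-sided quasi-likelihood test with the relative log expression scaling that the labels name) in R 4.3.3, with Benjamini-Hochberg adjustment over all 16557 genes and a threshold of 0.05. CPM values carry the same factors. SE is the absolute log2 fold change divided by the square root of the test's F statistic, and intervals use this SE. Transcripts were tested likewise, and transcript usage with voom and diffSplice (limma 3.58.1). DESeq2 1.42.0, limma-voom, other scalings and filters, limma on log2(TPM + 1) and log2(TPM + 0.1), length and GC trends removed, a replicate block and each library left out were alternatives. GC content was found for 91% of tested genes. The members and lists were chosen with earlier results of these data known. From each list, the 3 called genes with the largest change each way at 1 CPM or more in the higher group are named, except a gene that is not reported here. On counts simulated for 16294 genes, with 50 genes changed at each size, 20 changed 1.25-fold were recovered, 32 changed 1.5-fold, 39 changed 2-fold and 48 changed 4-fold, and 7 of 146 calls were false. Promoters are RefSeq's (GRCh38.p14); FOSL1's was not used here.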

Additional observations from a re-analysis of the deposited data

How the results depend on the processing

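Under 20 alternatives FOSL1, JUN, JUNB and JUND kept their calls, and FOS kept its own under 19. FOSB (18 alternatives), ATF3 and MAFF (20 each) were called in none, with ATF3 above 0 in 9. Over all genes the limma tests on TPM moved the counts: 4443 genes rose and 1276 fell on log2(TPM + 1), 4434 and 1274 on log2(TPM + 0.1), and 968 fell on log2(TPM + 1) without a filter, against 2743 and 2835. With library size alone 3816 rose and 2065 fell, the median of all genes being 0.06. Leaving out 1 library gave 2065 to 2357 genes higher and 2158 to 2469 lower. The correlations do not settle whether the shared replicate numbers pair the samples. Same-numbered co-treated and control libraries had correlations of 0.404, -0.0968 and 0.337 over 10845 genes. Co-treated replicates 1 and 3 correlated best with the control of the same number, and co-treated replicate 2 with control 3 (0.2225). With the replicate number as a block, 3177 genes rose and 3190 fell, the same 5 AP-1 genes were called, 0 member transcripts were, and 9 textbook targets rose in place of 5. Changed transcript usage was then called in 105 genes, against 189, and in 0 members. Estimated counts apportion shared reads, and FOS, FOSB and ATF3 rest on few counts.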
